A study of Mus musculus with 4 samples.

Results

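The genes described here are 40 genes of glycolysis and of the response to low oxygen, chosen by name from knowledge of these pathways, with earlier results of these data known. All 40 were rows of the deposited table of 23420 genes. A member was tested when its normalised read count was at least 10 in 2 or more of the 4 libraries, which 39 members met, against 12463 genes of the table. Eno1, with 1 read over all 4 libraries, did not meet it. None of the 39 met it through 1 group alone.

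RNA was sequenced from CD11b and CD200R1 positive myeloid cells that had been sorted by flow cytometry out of orthotopic cutaneous squamous cell carcinomas, a skin cancer, in FVB/N mice. The WT group holds 2 libraries. CD200 is a surface protein whose receptor is CD200R1. The EpiKO group, also with 2 libraries, is labelled K14Cre;CD200fl/fl, where a Cre recombinase under the keratin 14 promoter, which is active in epithelial keratinocytes and not in myeloid cells, acts on a floxed Cd200. Whether the genotype is that of the tumour, the host or both, and the age, sex, pooling of animals and batch, are not stated in the labels, so p-values measure only the spread between these libraries, which may be technical. The labels name no treatment.

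Glycolysis breaks glucose down to pyruvate in the cytosol, and macrophages that are activated or that lack oxygen depend on it and export lactate. When oxygen falls, prolyl hydroxylases of the Egln family stop marking the HIF alpha proteins for destruction. HIF then pairs with Arnt on DNA and raises the transcription of glucose transporters, of most glycolytic enzymes and of genes for angiogenesis, mitophagy and collagen modification. HIF-1 alpha is also induced in myeloid cells by inflammatory signals without low oxygen.

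Depth was between 15884132 and 21244158 reads assigned to genes per library, and 1 read was worth a normalised count of 0.841 to 1.16. Values below are these normalised counts, that is, reads divided by a size factor of the authors for each library, and a log2 fold change is EpiKO against WT on the log2(value + 1) scale with its moderated standard error (SE). Each library was rich in macrophage transcripts. The 10 markers of the sorted myeloid cells summed to 451683 and 375129 in WT replicates 1 and 2 and to 576367 and 494023 in EpiKO replicates 1 and 2. The summed members ranked the libraries alike. Lyz2 alone gave 207009 and 157099 of the WT sums and 325763 and 235159 of the EpiKO sums, with that ranking, which Csf1r and Ptprc did not have. Of the 10 markers, 6 had a positive log2 fold change and 4 a negative one. Lyz2 was 1.54-fold, Mrc1 1.58-fold and Itgam 1.34-fold higher in the EpiKO mean, while the ratio was 0.874 for Csf1r and 0.978 for Cd68. By limma none of the 10 was called, and DESeq2 called Mrc1 (adjusted p = 0.00289) and Cd200r1 (adjusted p = 0.000244) higher. The part of these markers in the values of the members was not tested. Keratinocyte markers set WT replicate 1 apart: the 12 genes of that list summed to 6060 in it, while the sum was 131 for WT replicate 2 and 79.7 and 71.8 for EpiKO replicates 1 and 2. In the same order Cd200 was at 92.7, 59.7, 17.2 and 15.1, and Cd200r1, whose protein was used in the sort, at 318, 293, 1101 and 612. Fibroblast markers summed to 18262 to 31479 over the libraries, and 8 genes of early response and tissue dissociation to 115202 to 124455. Of the 7 fibroblast markers, 5 had a positive log2 fold change and 2 a negative one. Without overlap of the groups, Pdgfra was 1.82-fold and Pdgfrb 1.90-fold higher in the EpiKO mean, and the ratio was 0.652 for Col3a1. By limma none of the 7 was called, and DESeq2 called Pdgfra alone (adjusted p = 0.0100). T and NK cell markers summed to 106 to 1765, nearly all of it Cd4, and the endothelial, B cell, red cell and mast cell lists to at most 305 in any library. In bulk RNA, a different share of cells of a type and a different amount of RNA per cell cannot be told apart.

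As a group, the members were higher in EpiKO. The log2 fold change was positive in 35 of the 39 tested members (89.7%) and negative in 4, where 49.7% of all tested genes were positive and 50.3% negative. The median log2 fold change of the members was 0.54, and that of all tested genes -0.0021. In 30 members (76.9%) both EpiKO libraries lay above both WT libraries, against 23.3% of all tested genes. Only Epas1 showed the reverse order, which held for 23.8% of all tested genes, and in 8 members the groups overlapped. The 40 members together took 0.740% and 0.686% of the reads of WT replicates 1 and 2, and 1.15% and 0.830% of those of EpiKO replicates 1 and 2.

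Gene by gene, 1 member passed the test. Hk3, the hexokinase of myeloid cells, rose in EpiKO by limma with Benjamini-Hochberg adjustment over all tested genes (adjusted p under 0.05), and none fell. By that rule 0.417% of all tested genes were called higher and 0.53% lower. Without adjustment, 19 members (48.7%) were higher at p under 0.05 and none lower, against 8.07% and 7.57% of all tested genes. On the reads recovered from the deposited values, edgeR called Hk3 alone among the members, where it called 0.385% of all genes higher and 0.457% lower. DESeq2 on the same reads called 11 members (28.2%) higher and none lower, against 3.73% and 3.12% of all genes. These 11 were Adm, Bnip3, Egln3, Ero1l, Gpi1, Hk3, Ndrg1, P4ha2, Pfkl, Pgk1 and Slc2a1.

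**Figure D1:**
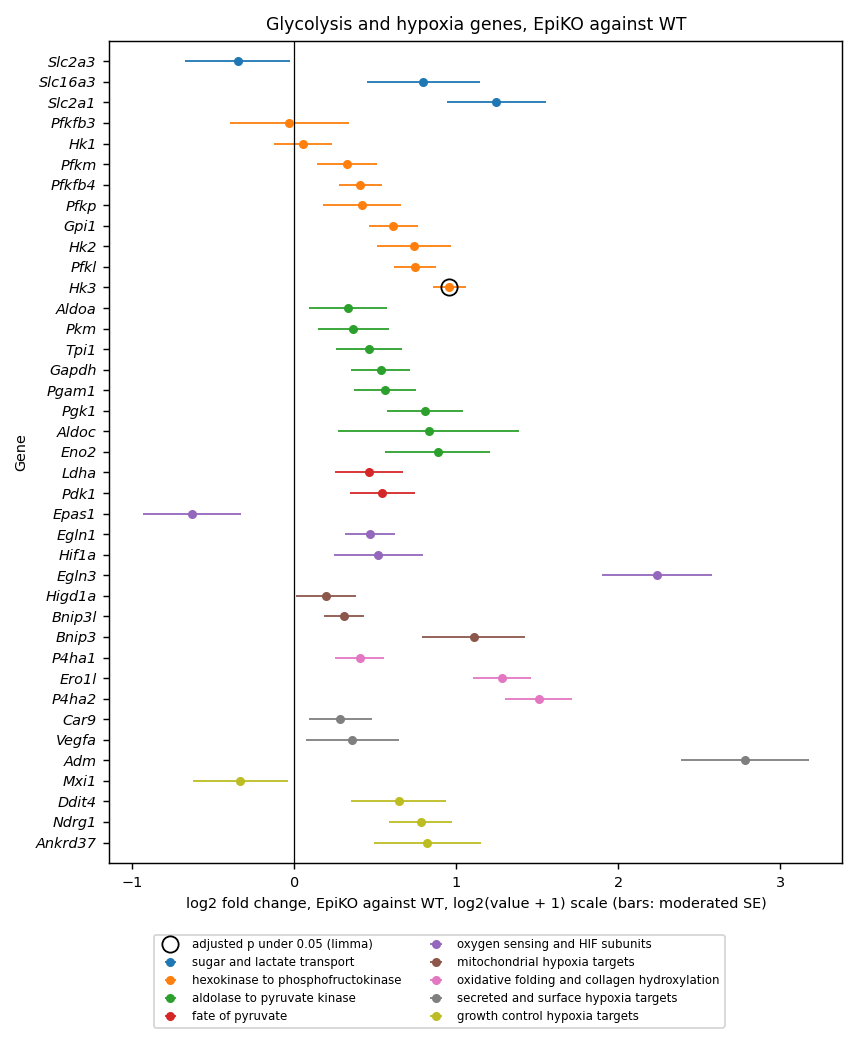
Log2 fold change of EpiKO against WT on the log2(value + 1) scale (horizontal axis) for each of the 39 tested members (vertical axis), coloured by role, with the moderated standard error as bars and a ring around the gene past an adjusted p of 0.05. Most points lie to the right of 0, Adm and Egln3 lie farthest right at 2.78 and 2.24, and Hk3, with a narrow error, carries the ring.

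The 5 members with the smallest p were Hk3, P4ha2, Ero1l, Adm and Egln3, and their promoters are shown because HIF binds the core letters ACGTG or GCGTG. The sequences are 300 bases each, from 250 before to 50 after the start of transcription, 5′ to 3′ on the gene's strand, from RefSeq on GRCm38.p6, the assembly of C57BL/6J and not of FVB/N. Capitals mark ACGTG and GCGTG on either strand (read as CACGT and CACGC on the other strand). The windows are chr13:55021336-55021635 on the minus strand for Hk3, chr11:54100674-54100973 on the plus strand for P4ha2, chr14:45318523-45318822 on the minus strand for Ero1l (Ero1a in RefSeq), chr7:110627407-110627706 on the plus strand for Adm, and chr12:54203825-54204124 on the minus strand for Egln3.
Hk3: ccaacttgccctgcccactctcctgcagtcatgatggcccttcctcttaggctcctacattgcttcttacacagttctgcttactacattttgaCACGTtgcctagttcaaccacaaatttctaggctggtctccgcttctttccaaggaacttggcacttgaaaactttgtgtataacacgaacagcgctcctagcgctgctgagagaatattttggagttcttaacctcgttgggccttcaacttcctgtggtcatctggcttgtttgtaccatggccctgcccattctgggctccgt
P4ha2: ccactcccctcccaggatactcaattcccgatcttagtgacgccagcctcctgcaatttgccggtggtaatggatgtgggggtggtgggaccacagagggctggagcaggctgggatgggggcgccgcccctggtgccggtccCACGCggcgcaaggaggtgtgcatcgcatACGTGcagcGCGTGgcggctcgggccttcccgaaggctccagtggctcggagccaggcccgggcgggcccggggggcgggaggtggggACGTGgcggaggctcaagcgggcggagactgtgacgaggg
Ero1l: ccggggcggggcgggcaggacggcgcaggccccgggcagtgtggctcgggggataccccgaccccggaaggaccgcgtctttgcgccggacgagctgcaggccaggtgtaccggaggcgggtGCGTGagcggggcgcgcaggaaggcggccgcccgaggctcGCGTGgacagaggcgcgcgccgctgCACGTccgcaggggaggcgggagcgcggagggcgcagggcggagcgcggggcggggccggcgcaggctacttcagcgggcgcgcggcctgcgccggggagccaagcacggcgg
Adm: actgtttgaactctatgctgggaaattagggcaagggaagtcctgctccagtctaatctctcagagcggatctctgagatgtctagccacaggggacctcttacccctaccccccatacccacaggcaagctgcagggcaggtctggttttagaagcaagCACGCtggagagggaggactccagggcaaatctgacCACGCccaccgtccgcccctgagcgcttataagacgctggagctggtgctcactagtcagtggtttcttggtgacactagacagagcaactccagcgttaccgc
Egln3: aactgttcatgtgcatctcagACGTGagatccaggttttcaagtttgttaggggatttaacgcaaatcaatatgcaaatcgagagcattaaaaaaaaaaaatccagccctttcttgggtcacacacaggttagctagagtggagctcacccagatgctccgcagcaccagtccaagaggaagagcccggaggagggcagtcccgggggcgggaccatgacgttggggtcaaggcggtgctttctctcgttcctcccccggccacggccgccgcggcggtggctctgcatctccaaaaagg

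Hk3 and Egln3 held 1 ACGTG each and no GCGTG, P4ha2 held 2 of each, Ero1l held 1 ACGTG and 2 GCGTG, and Adm held 2 GCGTG alone. RefSeq promoters were found for 36 members, in 52 windows, since a gene can have several starts. Slc2a3, Epas1, Bnip3l and Ndrg1 had no entry. ACGTG stood in 59.6% of the members' windows, in 25.2% of 11862 windows of tested genes and in 19.6% of all 32851 windows. GCGTG stood in 53.9%, 49.9% and 32.4% of them. The median GC content was 62.7%, 60.7% and 52.7% in the same order. CACGTG holds ACGTG on both strands. A match of letters is a description and does not show that a factor binds there. The members were chosen by name as genes of glycolysis and low oxygen, so the shares of windows describe that list and not EpiKO.

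Among the transporters, the glucose carrier Slc2a1 (GLUT1) stood apart from its relative Slc2a3 (GLUT3). Slc2a1 had values of 2885 and 1689 in WT replicates 1 and 2, and of 6218 and 4426 in EpiKO replicates 1 and 2. Both EpiKO libraries were above both WT libraries, with a log2 fold change of 1.25 (SE 0.308, limma adjusted p = 0.157; 0.00212 by DESeq2). Slc2a3 was at 166 and 236 in WT, against 121 and 199 in EpiKO, with overlapping groups and a log2 fold change of -0.35 (SE 0.321). Per kb of exon, Slc2a1 made up 97.3% and 93.7% of the pair in WT and 99.1% and 97.9% in EpiKO, so it was the main glucose transporter of the pair in every library.

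Slc16a3 (MCT4), which exports lactate, was at 2395 and 1934 in the WT libraries, with 5301 and 2639 for EpiKO. The EpiKO libraries lay above the WT libraries but differed 2.01-fold from each other, and the log2 fold change was 0.80 (SE 0.349, adjusted p = 0.373 by limma).

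Hexokinases trap glucose in the cell as glucose 6-phosphate, and of the 3 measured only Hk3 was called. Hk3 had values of 734 and 767 in WT and of 1455 and 1461 in EpiKO. The libraries of a group were nearly equal, with 751 ± 23.9 (SD, n = 2) for WT and 1458 ± 3.96 (SD, n = 2) for EpiKO. The log2 fold change was 0.96 (SE 0.101, adjusted p = 0.0399 by limma; 0.0403 by edgeR and 6.02e-07 by DESeq2). With each of the 4 libraries left out in turn, the log2 fold change ranged from 0.93 to 0.99. Such fits leave 1 library in a group and cannot decide on the call. By limma without a trend the adjusted p was 0.0900. Hk3 is found on mouse chromosome 13 (mm10) from 55005985 to 55021385 on the minus strand. Its exons overlap those of Unc5a on the other strand by 34 bases, and Unc5a itself was at 13.9 and 10.1 in the WT pair, against 54.9 and 43.5 in the EpiKO pair.

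Hk2, the inducible hexokinase of HIF and insulin signalling, was at 1761 and 1125 in WT, against 2271 and 2427 in EpiKO (log2 fold change 0.74, SE 0.229). Hk1, the widespread housekeeping form, was nearly level, at 1779 and 1953 in the WT libraries, with 2274 and 1647 for EpiKO. Per kb of exon, Hk3 made up 28.4% and 33.3% of the hexokinase level in WT and 37.9% and 39.8% in EpiKO. The share of Hk1 was 29.7% and 36.6% in WT and 25.6% and 19.4% in EpiKO. All 3 forms thus made up a sizeable part, and in both EpiKO libraries the share of Hk3 was above, and that of Hk1 below, its range in WT. These shares depend on the exon lengths used, 8.53 kb for Hk1 and 3.68 kb for Hk3. Before division by length, Hk3 was below Hk1 in every library.

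Gpi1, the isomerase that makes fructose 6-phosphate, was at 9086 and 8930 in the WT pair, against 15469 and 12269 in the EpiKO pair. The groups were apart, and the log2 fold change was 0.61 (SE 0.152, adjusted p = 0.152 by limma).

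Phosphofructokinase commits sugar to glycolysis, and its liver form Pfkl was the one with the smallest p. Pfkl stood at 1699 and 1617 in WT, against 3040 and 2544 in EpiKO (log2 fold change 0.75, SE 0.129, adjusted p = 0.0788 by limma; 0.000803 by DESeq2). Both EpiKO libraries were above both WT libraries by more than the gap within either group. The platelet form Pfkp and the muscle form Pfkm were at log2 fold changes of 0.42 (SE 0.241) and, in turn, 0.32 (SE 0.187). Pfkp was at 2094 and 1924 in WT, against 3395 and 2115 in EpiKO, and its log2 fold change was 0.075 without EpiKO replicate 1 and 0.76 without EpiKO replicate 2. For Pfkm, at 283 and 276 in WT, against 301 and 406 in EpiKO, these values were 0.54 and 0.11. Per kb of exon, Pfkl made up 51.4% and 51.7% of the 3 forms in WT and 57.0% and 57.7% in EpiKO. This share depends on the exon length used, which was 13.4 kb for Pfkp and 6.68 kb for Pfkl. Before division by length, Pfkp was above Pfkl in both WT libraries and in EpiKO replicate 1.

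Of the enzymes that set fructose 2,6-bisphosphate, the activator of phosphofructokinase, Pfkfb4 had a log2 fold change of 0.41 (SE 0.132). Pfkfb3, the form with the strongest kinase activity, had one of -0.029 (SE 0.367). Pfkfb3 varied within each group, from 1760 to 2660 in WT and from 1531 to 2937 in EpiKO.

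From aldolase to pyruvate kinase, the log2 fold change of all 8 tested members was positive, between 0.33 and 0.89. Of all tested genes, 49.7% were positive. None of the 8 was called by limma or edgeR, while DESeq2 called Pgk1, where it called 3.73% of all genes higher. By limma 4 of the 8 had an unadjusted p under 0.05, where 8.07% of all tested genes were higher at that p. Pgk1, which makes the first ATP of the pathway, was at 2141 and 1853 in the WT libraries, with 4358 and 2794 for EpiKO. Its groups were apart (log2 fold change 0.81, SE 0.236, adjusted p = 0.205 by limma; 0.0205 by DESeq2). Pgk1 lies on chromosome X from 106187100 to 106203699, and Xist, the RNA of the inactive X chromosome, was at 522 and 361 in the WT pair, against 1228 and 1510 in the EpiKO pair. The part of this in the value of Pgk1 was not tested.

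Gapdh, which reduces NAD+ at the middle of the pathway and is often used as a reference gene, was at 12394 and 11977 in WT, against 20647 and 15106 in EpiKO. Its log2 fold change was 0.54 (SE 0.182, adjusted p = 0.254 by limma), with both EpiKO libraries above both WT libraries. The mutase gene Pgam1 was at 1645 and 1595 in the WT libraries, with 2871 and 1987 for EpiKO (log2 fold change 0.56, SE 0.194). Pkm, pyruvate kinase, was at 24952 and 23946 in the WT pair, against 38512 and 25734 in the EpiKO pair. EpiKO replicate 2 was thus close to WT for Pkm (log2 fold change 0.36, SE 0.220, adjusted p = 0.520 by limma).

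Tpi1, the triosephosphate isomerase, and Aldoa, the main aldolase, were at log2 fold changes of 0.46 (SE 0.206) and, in turn, 0.33 (SE 0.241). Aldoc, the brain-type aldolase and a HIF target, rested on 1 library: it was at 257 and 229 in WT, at 779 in EpiKO replicate 1 and at 239 in EpiKO replicate 2. Without EpiKO replicate 1 its log2 fold change was -0.021. Eno2, the neuronal-type enolase, was at 453 and 235 in WT, against 619 and 588 in EpiKO (log2 fold change 0.89, SE 0.323).

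Eno1, the main enolase of most cells, was listed at 0 in both WT libraries and in EpiKO replicate 1, and at 0.945, or 1 read, in EpiKO replicate 2. Other glycolytic enzymes used by nearly every cell stood far above this, so no level of Eno1 can be read from the table. In GENCODE M21, 26.0% of the 50-base windows of the transcripts of Eno1 also occur in those of other genes, 25.3% in Eno1b. For Eno1b itself, 85.2% of the windows occur in other genes. The row for that gene, Gm5506 in the table, was at 1083 and 934 in the WT libraries, with 1954 and 1139 for EpiKO. How reads with several alignments were treated is not given in the sources used here. Windows were shared for more than 20% of a gene's length in 8 members (Eno1, Gapdh, Pgk1, Pgam1, Pkm, Bnip3, Bnip3l and Higd1a), led by Pgk1 with 53.9%, so the levels of these genes are uncertain.

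Per kb of exon, the 5 leading genes came in the same order in each of the 4 libraries. The highest level in WT was that of Aldoa, with 6447 and 6025 per kb, followed in WT by Pkm with 4989 and 4788, Ldha with 3842 and 3528, Gapdh with 2999 and 2898, and Tpi1 with 2925 and 2794. Gapdh and Tpi1 overlapped in WT, while the others were apart from their neighbours. The order of these 5 genes depends on the exon lengths used. Before division by length, Pkm was above Aldoa in every library. Gapdh was then above Ldha in WT replicate 2 and in both EpiKO libraries, and below it in WT replicate 1. Summed over isoenzymes, the EpiKO mean was above the WT mean at all 13 steps, from 1.30-fold at aldolase to 2.26-fold at glucose uptake, and at 12 of them both EpiKO libraries were above both WT libraries. The exception was aldolase. Among single genes, 49.7% of all tested genes had a positive log2 fold change and 23.3% lay above without overlap. The steps are sums of members already counted above, so they are no further result. The enolase step held Eno2 alone and so does not give the level of enolase. Among the enolase rows left out, Gm5506 (Eno1b) had both EpiKO libraries above both WT libraries. Eno3 overlapped, at 249 and 165 in WT, against 149 and 261 in EpiKO.

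The EpiKO libraries differed along the pathway. EpiKO replicate 1 was between 1.57 and 2.63 times the WT mean at every step. EpiKO replicate 2 was 1.90 times the WT mean at glucose uptake, 1.5 at hexokinase, 1.36 at Gpi1 and 1.37 at phosphofructokinase. It was lower at aldolase (1.00), pyruvate kinase (1.05), Tpi1 (1.14), Ldha (1.14), Pgam1 (1.23), Gapdh (1.24) and lactate export (1.22), while Pgk1 (1.40) and Eno2 (1.71) were nearer to the first steps.

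**Figure D2:**
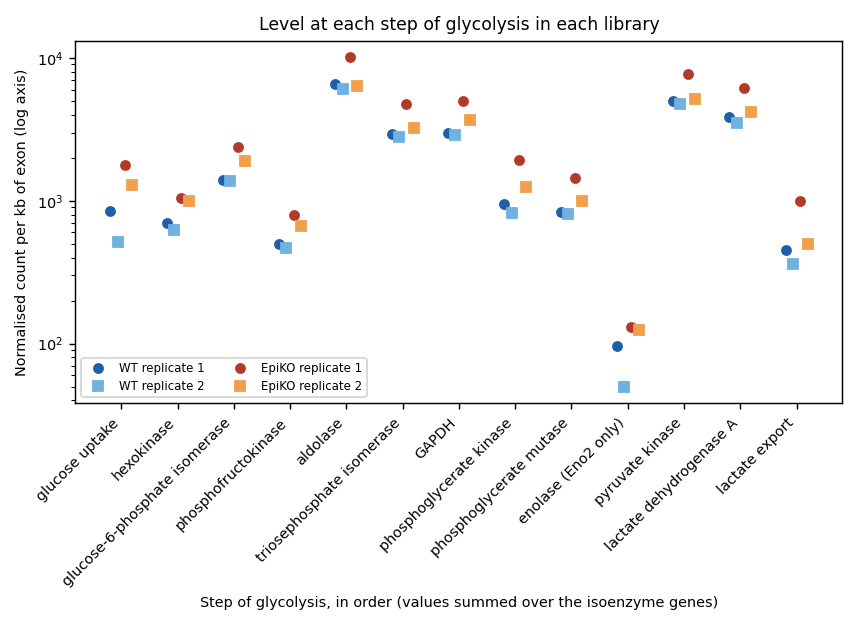
Normalised read count per kb of exon (vertical log axis), summed over the isoenzyme genes of each step of glycolysis in order (horizontal axis), with 1 point per library; the enolase step holds Eno2 only. EpiKO replicate 1 is the highest library at each step, and EpiKO replicate 2 lies close to WT at aldolase and pyruvate kinase but well above it at glucose uptake and hexokinase.

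At the fate of pyruvate, Ldha, the lactate dehydrogenase subunit that turns pyruvate into lactate, was at 12717 and 11679 in the WT pair, against 20283 and 13877 in the EpiKO pair (log2 fold change 0.46, SE 0.209, adjusted p = 0.384 by limma). Pdk1 is a kinase that inhibits pyruvate dehydrogenase. It was at 755 and 642 in WT, against 1211 and 852 in EpiKO. Its log2 fold change was 0.54 (SE 0.202, adjusted p = 0.294 by limma). In both genes the groups were apart and EpiKO replicate 1 was the highest library.

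Among the oxygen sensors, Egln3 (PHD3), a prolyl hydroxylase that is itself induced by HIF, had the larger difference. It stood at 177 and 124 in the WT libraries, with 947 and 524 for EpiKO, a 4.87-fold higher mean. The groups were apart, but the adjusted p missed the threshold (log2 fold change 2.24, SE 0.341, adjusted p = 0.0678 by limma; 6.19e-08 by DESeq2). Egln3 lies on chromosome 12 from 54178981 to 54203860 on the minus strand, with no exon overlap or shared window with other genes. Its relative Egln1 (PHD2), the main sensor at normal oxygen, was at 1544 and 1479 in the WT pair, against 2381 and 1837 in the EpiKO pair (log2 fold change 0.47, SE 0.153, adjusted p = 0.240 by limma).

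The genes of the HIF alpha subunits had log2 fold changes of opposite sign, and neither was called. Hif1a was at 4955 and 4922 in WT, against 9350 and 5359 in EpiKO, so EpiKO replicate 1 carried most of its log2 fold change of 0.52 (SE 0.276, limma adjusted p = 0.462). Without that library the log2 fold change was 0.12. Epas1, which encodes HIF-2 alpha, was at 480 and 728 in the WT libraries, with 477 and 304 for EpiKO, with a log2 fold change of -0.63 (SE 0.302, limma adjusted p = 0.409). It was the 1 member with both EpiKO libraries below both WT libraries, although EpiKO replicate 1 and WT replicate 1 nearly touched. HIF alpha is controlled mainly at the protein, which these data do not measure.

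Bnip3 and Bnip3l (NIX) are receptors on mitochondria that mark them for removal by autophagy. Bnip3 was at 1254 and 693 in the WT pair, against 2321 and 1744 in the EpiKO pair (log2 fold change 1.11, SE 0.317, adjusted p = 0.200 by limma; 0.0181 by DESeq2). Bnip3l was at 1580 and 1376 in WT, against 1908 and 1739 in EpiKO (log2 fold change 0.30, SE 0.123, adjusted p = 0.332 by limma). Both pairs of groups were apart, with Bnip3 2.09-fold higher in the mean and Bnip3l by 1.23-fold. Higd1a, a hypoxia-induced protein of the respiratory chain, was at 405 and 327 in the WT libraries, with 468 and 370 for EpiKO, which overlap (log2 fold change 0.20, SE 0.186).

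With Adm and Egln3, Ero1l of oxidative folding and P4ha2 of collagen hydroxylation were the hypoxia genes with the smallest p. Ero1l, which passes electrons from new disulphide bonds to oxygen in the endoplasmic reticulum, was at 1130 and 976 in the WT pair, against 2968 and 2208 in the EpiKO pair. The groups were apart and the mean was 2.46-fold higher (log2 fold change 1.28, SE 0.178, adjusted p = 0.0558 by limma; 5.62e-07 by DESeq2). The gene lies on chromosome 14 from 45283087 to 45318771 on the minus strand.

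P4ha2, a subunit of the enzyme that hydroxylates prolines of collagen, was at 97.4 and 76.5 in WT, against 247 and 249 in EpiKO. The EpiKO libraries were nearly equal and 2.85-fold above WT in the mean (log2 fold change 1.51, SE 0.206, adjusted p = 0.0540 by limma; 6.28e-05 by DESeq2). The gene is on chromosome 11 from 54100095 to 54131665 on the plus strand. Its relative P4ha1, the form of most cells, was more abundant but differed less, at 2891 and 2323 in the WT libraries, with 3635 and 3233 for EpiKO (log2 fold change 0.40, SE 0.150, adjusted p = 0.293 by limma).

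The largest fold change of all members was that of Adm, the gene of the vasodilator peptide adrenomedullin. It was low in WT, at 19.7 and 16.0, and was at 94.7 and 173 in EpiKO, a 7.50-fold higher mean. In reads these were 17 and 19 in WT and 88 and 183 in EpiKO. The groups were apart, and EpiKO replicate 2 was the higher library, unlike most members (log2 fold change 2.78, SE 0.394, adjusted p = 0.0567 by limma; 5.54e-06 by DESeq2). Adm lies on chromosome 7 from 110627661 to 110629820 on the plus strand, with no exon overlap or shared window with other genes.

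Vegfa, the vascular growth factor and the best known secreted HIF target, had overlapping groups. It was abundant throughout, at 5774 and 4549 in the WT pair, against 8583 and 5029 in the EpiKO pair (log2 fold change 0.36, SE 0.288, adjusted p = 0.645 by limma). Car9, a carbonic anhydrase of the cell surface that is almost silent in most cells with normal oxygen, was at 105 and 108 in WT, against 126 and 134 in EpiKO (log2 fold change 0.28, SE 0.195, adjusted p = 0.578 by limma). The groups did not overlap for Car9, but the mean was only 1.22-fold higher.

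**Figure D3:**
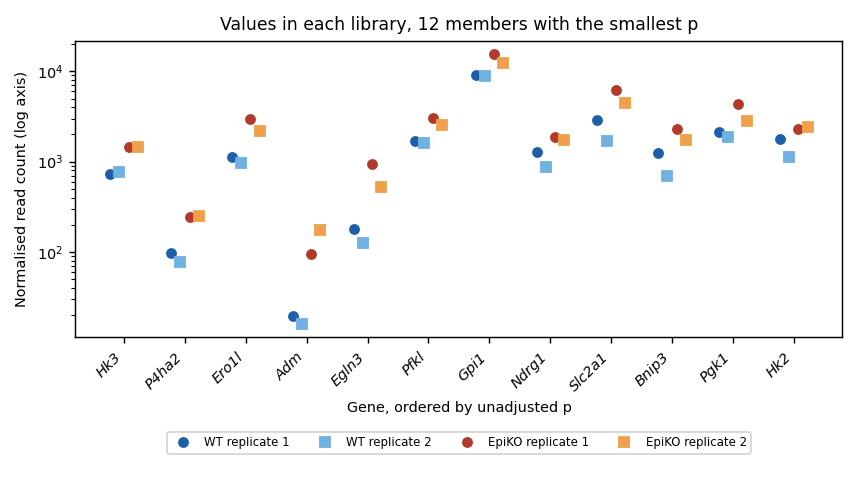
Normalised read count (vertical log axis) in each of the 4 libraries for the 12 members with the smallest unadjusted p (horizontal axis, in order of p). In each of the 12 genes both EpiKO points lie above both WT points, with nearly equal EpiKO points for Hk3 and P4ha2 and a wide gap between groups for Adm and Egln3.

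Among the remaining hypoxia targets, Ndrg1, a stress-induced cytoplasmic protein, was at 1269 and 882 in the WT libraries, with 1885 and 1756 for EpiKO. Its log2 fold change was 0.78 (SE 0.194, adjusted p = 0.155 by limma and 0.0235 by DESeq2). Ddit4 (REDD1), an inhibitor of mTORC1, was at 1689 and 1184 in the WT pair, against 2828 and 1729 in the EpiKO pair (log2 fold change 0.64, SE 0.295, adjusted p = 0.393 by limma). Ankrd37, an ankyrin repeat protein, was at 161 and 112 in WT, against 309 and 183 in EpiKO (log2 fold change 0.82, SE 0.330, adjusted p = 0.332 by limma). In these 3 genes both EpiKO libraries were above both WT libraries, though for Ddit4 by little. Mxi1, a Myc antagonist, was the exception. It was at 4027 and 2215 in the WT libraries, with 2296 and 2448 for EpiKO, with overlapping groups (log2 fold change -0.33, SE 0.293), and without WT replicate 1 its log2 fold change was 0.098.

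The members also varied together within the groups. EpiKO replicate 1 was above EpiKO replicate 2 in 29 of 39 members (74.4%), against 50% of all tested genes. WT replicate 1 was above WT replicate 2 in 34 of 39 (87.2%), against 51.6% of all tested genes. The median ratio to the WT mean was 1.69 in EpiKO replicate 1 and 1.24 in EpiKO replicate 2. In EpiKO replicate 1, 28 members (71.8%) reached 1.5 times the WT mean, against 9.78% of genes. In EpiKO replicate 2, 11 members (28.2%) reached it, against 10.9% of genes. Both libraries reached it in 11 members (28.2%, against 6.38% of genes): Slc2a1, Hk2, Hk3, Pfkl, Eno2, Egln3, Bnip3, Ero1l, P4ha2, Adm and Ndrg1. These shares are descriptions, since the members were chosen with earlier results known.

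**Figure D4:**
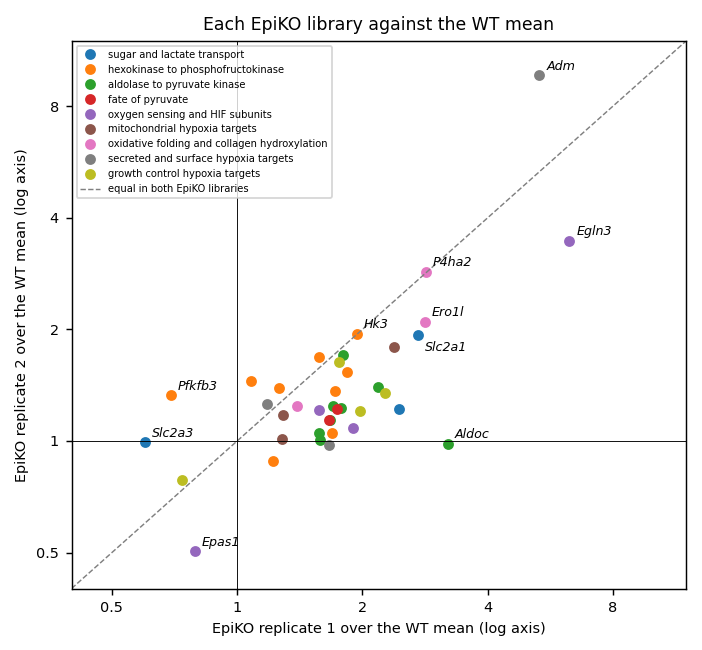
Ratio of each tested member to the WT mean in EpiKO replicate 1 (horizontal log axis) and in EpiKO replicate 2 (vertical log axis), coloured by role, with thin lines at a ratio of 1 and a dashed line where the EpiKO libraries are equal. Most points lie right of 1 and below the dashed line, Hk3 and P4ha2 lie on it, Adm lies above it, and Aldoc is at 3.21 in EpiKO replicate 1 and 0.984 in EpiKO replicate 2.

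The size of the median moved with the library left out. It was 0.31 without EpiKO replicate 1 and 0.76 without EpiKO replicate 2, with 34 and 35 members positive. Without WT replicate 1, the library with the keratinocyte transcripts, the median was 0.56 and 36 members were positive. Without WT replicate 2 it was 0.43, with 35 members positive. The list of neutrophil markers summed to 1542 and 3038 in WT and to 4532 and 2452 in EpiKO, but 3757 and 847 of the EpiKO sums were Mmp8, while S100a9 was at 64.9 and 737 in the WT pair, against 38.8 and 117 in the EpiKO pair. The part of other cell types in the values of the members was not tested.

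Other genes of the same pathways were counted on lists of 126 genes, all found in the table and 110 of them tested. No gene of these lists was called by limma or edgeR, with 15 higher and 13 lower at an unadjusted p under 0.05 by limma, and DESeq2 called 8 higher and 6 lower. Among all tested genes 8.07% were higher and 7.57% lower at that p, and DESeq2 called 3.73% higher and 3.12% lower. Their median log2 fold change was -0.0083. Among 31 tested further HIF targets the median was 0.13, with 19 positive and 12 negative. Plod2, a lysyl hydroxylase of collagen, was at 108 and 89.1 in WT, against 251 and 313 in EpiKO (log2 fold change 1.51, SE 0.211, adjusted p = 0.0561 by limma), close to P4ha2 in size. Stc2, a secreted stanniocalcin, had a log2 fold change of 3.88 (SE 0.592) with 1.16 and 3.36 (1 and 4 reads) in WT, against 50.6 and 38.7 in EpiKO. Angptl4, an inhibitor of lipoprotein lipase, had one of 1.57 (SE 0.333). P4hb, the abundant disulphide isomerase that partners the P4ha subunits, had one of 0.25 (SE 0.136). DESeq2 called 6 of these targets higher and 4 lower. Those lower included the chemokine receptor Cxcr4, the transferrin receptor Tfrc and Rab20, named after their values were seen, with log2 fold changes by limma of -1.19, -1.09 and -0.75. The lowest value on the list, -2.19 for the carbonic anhydrase Car12, rested on WT replicate 1, where it was at 119 against 7.57 in WT replicate 2.

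On the list of HIF partners and regulators, 10 of 13 tested genes were negative, where 50.3% of all tested genes were, with a median of -0.060. Cited2, which competes with HIF for its coactivators, had a log2 fold change of -0.50 (SE 0.157, limma adjusted p = 0.229), and Crebbp, Cul2 and Os9 were between -0.21 and -0.071. By limma 1 was lower and none higher at an unadjusted p under 0.05, and neither edgeR nor DESeq2 called any.

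Of 11 tested genes of gluconeogenesis and glycogen, 10 were positive, where 49.7% of all tested genes were, with a median of 0.30. Gys1, glycogen synthase, was at 496 and 545 in the WT libraries, with 1238 and 925 for EpiKO, with groups apart (log2 fold change 1.04, SE 0.171, adjusted p = 0.0733 by limma). Pygl, glycogen phosphorylase, was at 858 and 1070 in the WT pair, against 4106 and 1348 in the EpiKO pair, so most of its log2 fold change of 1.30 (SE 0.530) lay in EpiKO replicate 1. Gyg, the glycogen primer, and Ugp2, which makes the sugar donor, were at log2 fold changes of 0.43 (SE 0.157) and, in turn, 0.30 (SE 0.179).

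The remaining 15 tested glycolysis genes were divided, with 7 positive and 8 negative and a median of -0.041. Pgm2 and Galm were at log2 fold changes of 0.72 (SE 0.142) and, in turn, 0.50 (SE 0.143), and Slc16a7 (MCT2), a monocarboxylate carrier, had one of -0.61 (SE 0.125). Pgm1 was level at 0.048 (SE 0.101). The pentose phosphate pathway, which makes NADPH from glucose 6-phosphate, had a median of 0.068 over 11 tested genes. Its dehydrogenase Pgd had a log2 fold change of 0.57 (SE 0.178), with values of 0.29, 0.45 and 0.26 for Rpe, Rpia and Tkt.

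Genes that take pyruvate into the mitochondrion and through the TCA cycle had values on the other side of 0. Of 29 tested, 24 had a negative log2 fold change with a median of -0.20, 20 had both EpiKO libraries below both WT libraries, and 7 were lower at an unadjusted p under 0.05 by limma with none higher. Over all tested genes these shares were 50.3% negative, 23.8% below without overlap and 7.57% lower at that p. None was called by limma or edgeR, and DESeq2 called Sdhb, a subunit of succinate dehydrogenase. Sdhb was at 2893 and 2882 in WT, against 2157 and 2136 in EpiKO (log2 fold change -0.43, SE 0.0999, adjusted p = 0.136 by limma). Pdp2 and Pdhb, a phosphatase and a subunit of pyruvate dehydrogenase, were at log2 fold changes of -0.76 (SE 0.194) and, in turn, -0.51 (SE 0.134), and Ogdh was at 0.059 (SE 0.109). The difference between this list and the members was not tested.

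**Figure D5:**
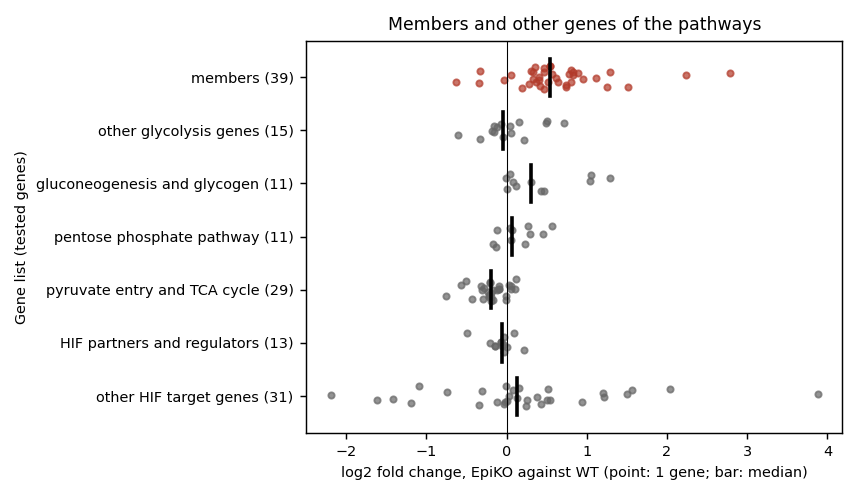
Log2 fold change of EpiKO against WT (horizontal axis) of each tested gene of the members and of 6 further lists (vertical axis, with the number of tested genes), where points are genes and black bars medians. The members have a median of 0.54, the gluconeogenesis and glycogen list 0.30, and the list of pyruvate entry and the TCA cycle -0.20.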

How the data were processed

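The authors deposited 1 table of normalised values per gene and library, a signal that holds read counts divided by a size factor per library. Per the submitters' processing notes, reads were processed with DESeq2, featureCounts 1.5.0-p3, STAR 2.5.2b and bcl2fastq 2.17, with mm10 as the build, while the sources used here name no annotation or strand setting. All values (100%) were whole numbers of reads to within 1e-06 of a read once multiplied by a factor per library, which gave back the reads.

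Values were tested as log2(value + 1) with limma 3.58.1 in R 4.3.3 (trend, robust, two-sided, no covariate, all 4 libraries), so fold changes of low genes are understated. The fit held genes that reached 10 in 2 or more libraries, and p-values were adjusted by Benjamini-Hochberg over all of them. With 2 libraries in each group, exact permutation cannot give a p below 0.333. The fit was tested on simulated data. edgeR 4.0.16 and DESeq2 1.42.0 were run on the recovered reads as alternatives, beside other pseudocounts, filters and scalings and leaving out each library.

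Members and lists were chosen with earlier results of these data known. Per-library values are given for the 3 members of each role with the smallest p and the most abundant one, and for others chosen after their values were seen. Coordinates and exon lengths are from GENCODE M21 on mm10. Exon length is the union over all transcripts, which affects values per kb. Exons of 16 members overlap a gene on the other strand, and such reads cannot be told apart if counting ignored strand. Of all list entries, 2 were found under another symbol.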

Additional observations from a re-analysis of the deposited data

How the results depend on the processing

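Scaling to equal totals, quantile normalization, edgeR, pseudocounts of 0.5 and 5 and a filter at 50 left 1 member called higher, and no setting called a member lower. The number called higher was 3 without a filter (Hk3, Ero1l and P4ha2), 0 by limma without a trend, 6 at a threshold of 0.1 and 11 by DESeq2. Fits without 1 of the 4 libraries cannot decide on a call. The smaller number of samples leaves fewer degrees of freedom, and the spread of the lone library is taken from the other group. The median log2 fold change of the members was 0.31 to 0.76 over these fits. Of the other pathway genes, 3 were called at a threshold of 0.1 and 14 by DESeq2. Of all genes fitted, limma called 158 of 16235 without a filter and 31 of 12463 without a trend. At a threshold of 0.1 it called 428 of 12463, and DESeq2 called 854 of 12463. The settings that left 1 member called had from 100 (quantile normalization) to 131 (pseudocount 5) genes called. The causes of these differences were not tested. Of the 39 members, 6 changed sign when 1 library was left out: the log2 fold change ranged from -0.021 to 1.68 for Aldoc, from -0.18 to 0.29 for Hk1, from -0.76 to 0.098 for Mxi1, from -0.50 to 0.44 for Pfkfb3, from -0.71 to 0.011 for Slc2a3 and from -0.028 to 0.74 for Vegfa. Pfkfb3 was also at 0.014 by edgeR and 0.016 by DESeq2. No paired analysis was possible because the labels give no replicate numbers that tie a WT library to an EpiKO library. With 2 libraries per group, the spread of a single gene is poorly known.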
